A study of Homo sapiens with 3 samples.

Results

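Activating transcription factor 4 (ATF4) target genes and cytosolic transfer RNA synthetases were examined in KMS11 cells given short hairpin RNAs against MMSET (current symbol NSD2). The set was a list of 40 genes, made of reported ATF4 targets and of 12 enzymes that load amino acids onto transfer RNAs in the cytosol. Probe sets were taken where their single gene symbol was on the list, with older synthetase symbols brought up to date, and each gene was represented by the probe set with the highest mean signal over the 3 arrays. In this way 39 of the 40 genes were measured, out of 19775 genes on the array. MARS1 was left out, because all 3 of its probe sets carry a second symbol. A filter that asked for a signal above the array's median on at least 1 array kept 38 of the 39, out of 13296 genes kept in all. NUPR1, a stress-induced chromatin protein gene, did not pass it, with signals of 4.17 for shMMSET#2, 1.94 for shMMSET#4 and 6.46 for shLuc.

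KMS11 is an established human multiple myeloma line that carries the t(4;14) translocation, which places the histone methyltransferase gene MMSET under immunoglobulin enhancers. Lentiviral infection brought in short hairpin RNAs, which direct the breakdown of a matching transcript, and RNA was taken at 48 h. The groups were shMMSET#2 and shMMSET#4, a pair of hairpins against MMSET, and shLuc, a hairpin against luciferase, with 1 array each and the same infection, polybrene and medium change for all. The title of the series puts the question as one of transcription factors under MMSET control on which myeloma cells rely.

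ATF4 is the main transcription factor of the integrated stress response. When uncharged transfer RNAs, unfolded proteins in the endoplasmic reticulum, viral RNA or a lack of heme activate a kinase that phosphorylates the initiation factor eIF2, general translation slows while translation of ATF4 messenger RNA increases. ATF4 then pairs with C/EBP proteins on composite sites and turns on genes of amino acid uptake, amino acid synthesis and transfer RNA charging, and, under lasting stress, genes that end the response or promote death. Plasma cells and myeloma cells secrete much antibody protein and use this response as part of their normal physiology. Because ATF4 is controlled to a large part in translation, its messenger RNA level is only a partial measure of its activity.

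Composite C/EBP-ATF sites share the letters TGATGNAA, where N is any base. These letters were searched on both strands, in RefSeq promoter windows of GRCh38.p14 that run from 250 bases before to 50 bases after an annotated gene start. Promoter windows were found for 33 of the 40 genes. Of these 33, 14 held the letters at 1 or more of their annotated starts (42.4%), against 2.96% of the 10722 genes kept by the signal filter that have a window. Counted by starts, 14 of 54 windows of the set held them (25.9%), against 3.62% of all 35116 windows. The genes were listed as ATF4 targets partly from work on such sites, so this share is a description of the list. Below, the matches are shown for all of the 14 genes except CEBPG, MARS1 and SLC3A2. They stand in 30-base windows, written along the gene's own strand with the match in capitals. The SLC3A2 match lies near the end of its promoter window, which leaves a stretch of 24 bases. A match on the opposite strand appears as TTNCATCA. The ASNS promoter is shown from 250 bases before its start up to the start, because ASNS carries the best-known site of this kind.
ASNS, chr7:97872409-97872658, minus strand: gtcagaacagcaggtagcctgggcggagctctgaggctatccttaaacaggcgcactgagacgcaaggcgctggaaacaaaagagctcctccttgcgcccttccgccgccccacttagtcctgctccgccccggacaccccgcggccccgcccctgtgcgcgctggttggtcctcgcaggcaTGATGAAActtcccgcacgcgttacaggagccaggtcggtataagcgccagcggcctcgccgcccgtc
CHAC1, chr15:40953251-40953280, plus strand: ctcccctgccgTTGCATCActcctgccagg
SLC1A5, chr19:46784893-46784922, minus strand: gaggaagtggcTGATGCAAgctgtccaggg
SLC1A4, chr2:64989381-64989410, plus strand: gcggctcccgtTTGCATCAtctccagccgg
SLC7A1, chr13:29595663-29595692, minus strand: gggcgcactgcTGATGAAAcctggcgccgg
AARS1, chr16:70289675-70289704, minus strand: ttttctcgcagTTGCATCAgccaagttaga
CARS1, chr11:3057407-3057436, minus strand: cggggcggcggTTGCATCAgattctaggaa
GARS1, chr7:30594834-30594863, plus strand: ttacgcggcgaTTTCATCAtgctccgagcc
IARS1, chr9:92293692-92293721, minus strand: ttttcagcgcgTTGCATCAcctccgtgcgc
NARS1, chr18:57621804-57621833, minus strand: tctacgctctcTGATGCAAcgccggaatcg
TARS1, chr5:33440956-33440985, plus strand: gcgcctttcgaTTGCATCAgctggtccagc

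The letters stood in 7 of 10 synthetase genes with a window, in 4 of 5 transporter genes, and in 1 of 7 genes of amino acid synthesis, which is ASNS. CEBPG and CHAC1 make up the rest of the 14. A match in letters is not a binding site, and these windows leave out introns and distant elements.

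The values are MAS5 signals, a linear brightness per probe set that the authors had scaled to the same trimmed mean on each array. With 1 array a group there is no replicate error and no test, so differences are given by size, and precision is limited by how few arrays there are. The nearest thing to an error is the difference between the arrays of shMMSET#4 and shMMSET#2, to which real differences of the hairpins add. On those arrays, 95% of the 13296 genes lay within 2.37-fold of each other. The 2-fold threshold used below lies inside that range. For the comparison of shMMSET#4 with shMMSET#2 itself, this difference gives no separate error. Ratios were computed after raising signals to a floor of 41.2, and where a signal was at the floor the ratio is a bound, written "at least". NSD2, the targeted gene, has 6 probe sets, of which 6 had a lower signal for shMMSET#2 than for shLuc (median log2 ratio -1.33) and 5 for shMMSET#4 (median -0.48). All 6 had a higher signal for shMMSET#4 than for shMMSET#2, with a median log2 ratio of 0.71. Whether this bears on differences of the set between the hairpins was not tested. The 3' over 5' log2 difference of the ACTB control probe sets was 1.14 for shMMSET#2, 1.14 for shMMSET#4 and 1.70 for shLuc, and its part in the ratios to shLuc was not tested. All ratios to shLuc share that 1 array. The median log2 ratio to shLuc over all genes was -0.04 with shMMSET#2 and -0.02 with shMMSET#4 as deposited, and 0.25 and 0.34 once the arrays were brought to one median signal. That scaling turned the sign of 10 of 38 ratios with shMMSET#2, namely CEBPG, TRIB3, DDIT4, PSPH, SLC1A4, CARS1, EPRS1, NARS1, TARS1 and YARS1. With shMMSET#4 it turned 9, namely ATF4, ATF5, CEBPG, CHAC1, STC2, MTHFD2, EPRS1, IARS1 and LARS1. In shMMSET#4 over shMMSET#2 it turned none of the 38, and the median of all genes was 0.06 after it and 0.00 before. Summed signals of the 8 plasma cell markers were 29342 for shMMSET#2, 54451 for shMMSET#4 and 56493 for shLuc. For 4 T cell markers the sums were 145.6, 134 and 259.5, with 2 of the 4 at the floor on all arrays.

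The median gene of the set differed more between the MMSET hairpins than between either hairpin and shLuc. As deposited, most of its genes had the lowest signal with shMMSET#2, and genes of serine, glycine and asparagine synthesis had the highest signal with shMMSET#4. In the plot of log2 signals, the shMMSET#2 point lies left of the shMMSET#4 point in all genes kept by the filter except CEBPG and DDIT3.

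**Figure D1:**
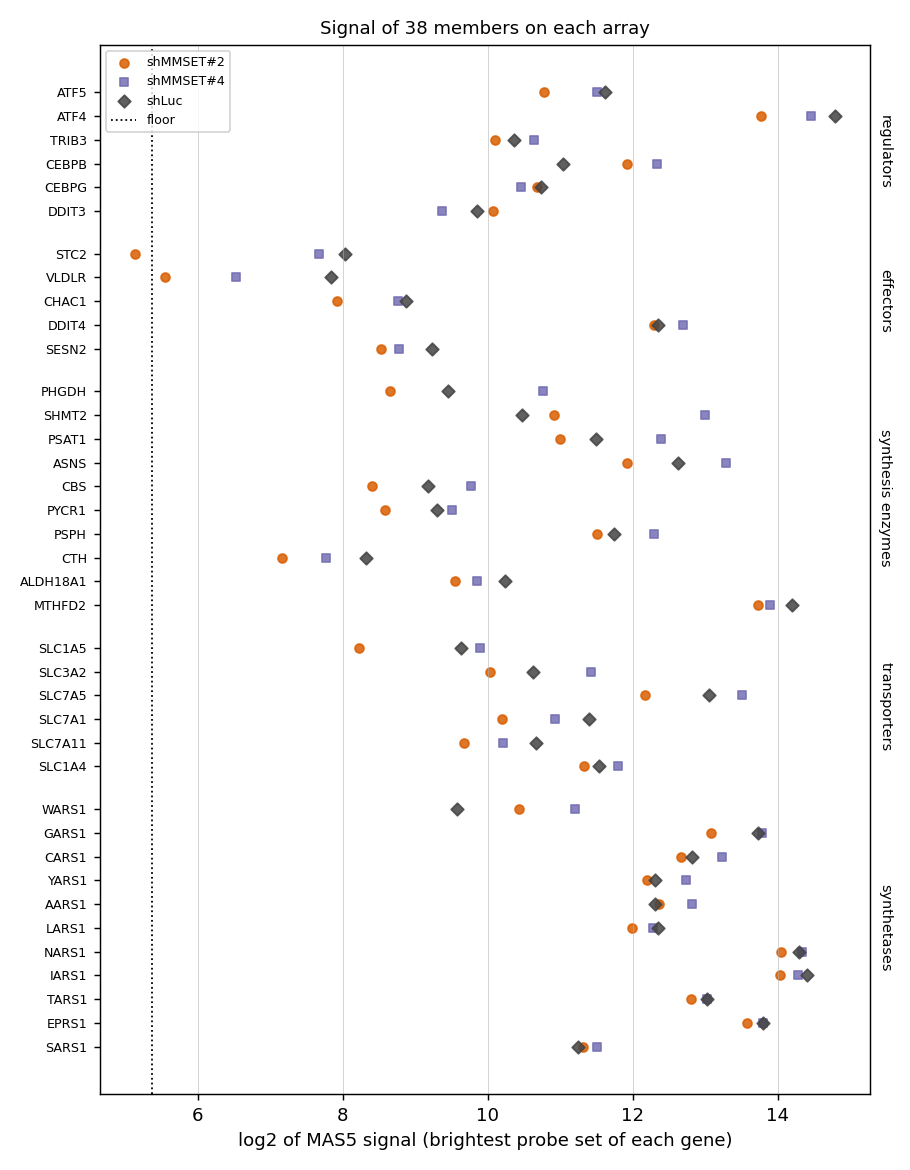
Log2 of the MAS5 signal (x axis) of the brightest probe set of each of 38 genes (rows), grouped by role, on the shMMSET#2 (circles), shMMSET#4 (squares) and shLuc (diamonds) arrays. The dotted line is the floor of 41.2, and STC2 with shMMSET#2 is the 1 point under it.

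Among the regulators, ATF4 itself had signals of 13943 with shMMSET#2 and 22448 with shMMSET#4, against 28464 with shLuc. It was the brightest of the 39 genes on the shLuc array, with ratios of 2.04-fold and 1.27-fold lower than shLuc. ATF5, a related factor whose translation is also under eIF2 control, had signals of 1748 with shMMSET#2 and 2919 with shMMSET#4, against 3137 with shLuc, so that it was 1.79-fold and 1.07-fold lower. A dimmer ATF5 probe set showed the same order, with 462, 984 and 1156. The others, near the floor, had 44.7, 54.1 and 52.3, and 58.8, 22.4 and 53.0, and did not show it. On their brightest probe sets both factors were lowest with shMMSET#2, and shMMSET#4 lay nearer to shLuc.

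DDIT3 encodes CHOP, a C/EBP family factor that promotes death under lasting stress. Its signal was 1078 with shMMSET#2 and 663 with shMMSET#4, against 923 with shLuc, and it was 1.62-fold lower with shMMSET#4 than with shMMSET#2. Between the hairpins, this is opposite to ATF4, while shLuc lay between them. TRIB3, a pseudokinase that restrains ATF4 and CHOP, had 1093 with shMMSET#2 and 1591 with shMMSET#4, against 1317 with shLuc.

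CEBPB, a C/EBP factor that can pair with ATF4, was higher with each hairpin. Its signal was 3861 with shMMSET#2 and 5168 with shMMSET#4, against 2103.5 with shLuc, which is 1.84-fold and 2.46-fold higher. CEBPG, a C/EBP partner of ATF4, differed little on its brightest probe set (1634, 1411 and 1709), and its 2 probe sets had opposite signs for shMMSET#4 over shMMSET#2 (log2 ratios of -0.21 and 0.52). Of the 6 regulators kept by the filter, ATF4 passed 2-fold on the lower side with shMMSET#2 (against 10.7% of all genes). CEBPB passed it on the higher side with shMMSET#4 (against 6.74%). At those shares, 1 gene of 6 does not set the regulators apart. After scaling to one median signal, the ATF4 log2 ratio with shMMSET#2 was -0.71, which is inside 2-fold.

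Among the stress effectors, STC2 and VLDLR showed the largest ratios to shLuc with shMMSET#2 of the 38 genes. STC2, a secreted glycoprotein of the stress response, had signals of 35.0 with shMMSET#2 and 203 with shMMSET#4, against 262 with shLuc. With shMMSET#2 at the floor, it was at least 6.36-fold lower than shLuc, and 1.29-fold lower with shMMSET#4. Its other probe set gave 49.8, 192 and 230. VLDLR, a lipoprotein receptor induced by ATF4, had 46.8 with shMMSET#2 and 91.9 with shMMSET#4, against 229 with shLuc, so that it was 4.90-fold and 2.49-fold lower. Both genes are dim, where MAS5 ratios are least precise.

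CHAC1 breaks down glutathione and carries the match shown above. It had 241.0 with shMMSET#2 and 433 with shMMSET#4, against 466 with shLuc. SESN2 encodes sestrin 2, which senses leucine and restrains the growth kinase complex mTORC1. It had 367 and 437, against 601 with shLuc. The other SESN2 probe set had 431 with shMMSET#2 and 339 with shMMSET#4, against 493 with shLuc, so that the hairpins stood in the opposite order. DDIT4, another restraint on mTORC1, had 5034 and 6640, against 5209 with shLuc. Thus SESN2 was lower with each hairpin, by 1.64-fold and 1.38-fold on the brightest probe set and by 1.14-fold and 1.45-fold on the other. DDIT4 was 1.03-fold lower with shMMSET#2 and 1.27-fold higher with shMMSET#4.

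Genes of amino acid synthesis had the highest median log2 ratio of shMMSET#4 over shMMSET#2 of the 5 roles, 1.15, next to 1.03 for transporters. The serine pathway branches from glycolysis through PHGDH, PSAT1 and PSPH, and serine hydroxymethyltransferase 2, encoded by SHMT2, then makes glycine and one-carbon units from serine in mitochondria. PHGDH, the first enzyme, had signals of 402 with shMMSET#2 and 1737 with shMMSET#4, against 698 with shLuc. It was 1.73-fold lower with shMMSET#2 and 2.49-fold higher with shMMSET#4. PSAT1, the aminotransferase of the second step, had 2037 with shMMSET#2 and 5353 with shMMSET#4, against 2875 with shLuc. Its dimmer probe set had 343, 766 and 398, in the same order. PSPH, the phosphatase that releases serine, had 2912 with shMMSET#2 and 4997 with shMMSET#4, against 3420 with shLuc. Its next probe set had 1763, 4616 and 3190.4, and a dim one had 43.4, 72.3 and 112, with shLuc highest. On their brightest probe sets, all 3 serine synthesis genes were lowest with shMMSET#2 and highest with shMMSET#4, except that PSPH was no longer lowest with shMMSET#2 when the arrays were scaled to one median signal.

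SHMT2 had the largest ratio to shLuc with shMMSET#4 of the 38 genes. Its brightest probe set had signals of 1931 with shMMSET#2 and 8189 with shMMSET#4, against 1416 with shLuc. The others had 669, 3639 and 625, and 176, 1454 and 125. Over these 3 probe sets the shMMSET#4 signal was 5.78-fold, 5.82-fold and 11.7-fold higher than shLuc, while shMMSET#2 was 1.36-fold, 1.07-fold and 1.41-fold higher. The ratio of the brightest probe set stood at percentile 99.8 of the 13296 genes. MTHFD2, the mitochondrial enzyme that takes up the one-carbon units made by SHMT2, did not follow it. MTHFD2 had 13602 with shMMSET#2 and 15177 with shMMSET#4, against 18866 with shLuc, and a dimmer probe set had 505, 500.02 and 287.

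ASNS, asparagine synthetase, had signals of 3872 with shMMSET#2 and 10025 with shMMSET#4, against 6287 with shLuc. It was 1.62-fold lower and 1.59-fold higher than shLuc. CBS, which makes cystathionine from homocysteine, had 339 with shMMSET#2 and 872 with shMMSET#4, against 579 with shLuc. CTH, the next enzyme on the way to cysteine, had 143 with shMMSET#2 and 217 with shMMSET#4, against 319 with shLuc. CTH was thus lower than shLuc with each hairpin (2.23-fold and 1.47-fold), unlike CBS. A dim CBS probe set had 28.7, 120.2 and 235, so that CBS probe sets had opposite signs at 1.5-fold for shMMSET#4 over shLuc.

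ALDH18A1 and PYCR1 encode enzymes of proline synthesis. ALDH18A1 had 748 with shMMSET#2 and 920 with shMMSET#4, against 1212 with shLuc. PYCR1 had 382 and 728, against 629 with shLuc. With shMMSET#2, 6 of the 10 synthesis genes lay 1.5-fold or more under shLuc (against 22.5% of all genes) and none over it (against 16.2%). With shMMSET#4, 5 lay 1.5-fold or more over shLuc (against 17.3%) and none under it (against 20.6%). After scaling to one median signal, 1 lay under shLuc with shMMSET#2 (against 13.2% of all genes) and 1 over it (against 30.1%). With shMMSET#4, 7 then lay over it (against 34.7%). Their median log2 ratio to shLuc was -0.70 with shMMSET#2 and 0.57 with shMMSET#4, and each kept its sign when the arrays were scaled to the same median signal (-0.38 and 0.95).

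**Figure D2:**
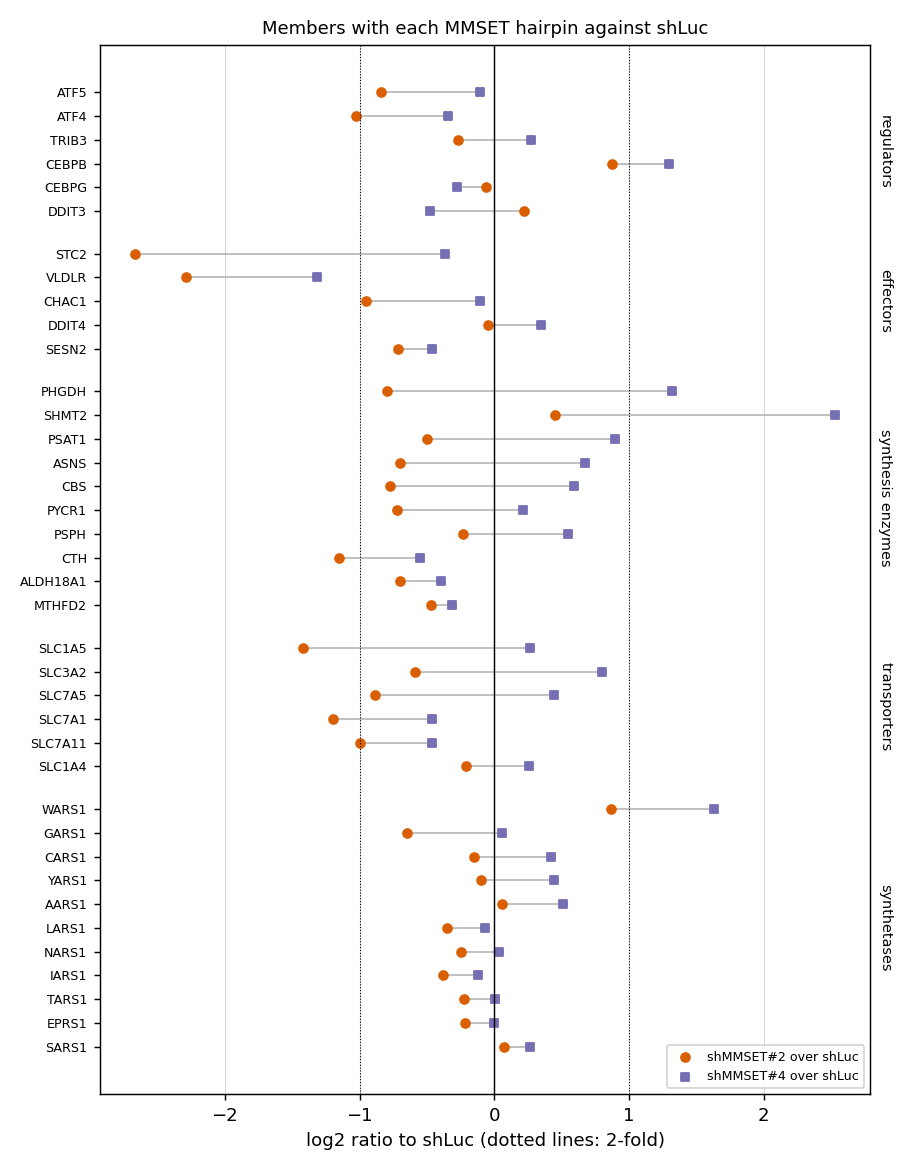
Log2 ratio to shLuc (x axis) of each of 38 genes (rows), with shMMSET#2 (circles) and shMMSET#4 (squares), joined by a line. Dotted lines mark 2-fold, past which lie 6 genes on the lower side with shMMSET#2 and 4 on the higher side with shMMSET#4.

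Of the 6 amino acid transporters, SLC7A1 and SLC1A5 were at least 2-fold lower with shMMSET#2 than with shLuc (against 10.7% of all genes). SLC1A5 is a carrier of glutamine and other neutral amino acids. It had signals of 298 with shMMSET#2 and 953 with shMMSET#4, against 795 with shLuc. SLC7A5 and SLC3A2 encode the light and heavy chains of the large neutral amino acid exchanger that brings in leucine. SLC7A5 had 4611 with shMMSET#2 and 11611 with shMMSET#4, against 8532 with shLuc. SLC3A2 had 1051 with shMMSET#2 and 2746 with shMMSET#4, against 1581 with shLuc. Both chains were lowest with shMMSET#2 and highest with shMMSET#4, with ratios between those hairpins of 2.52-fold and 2.61-fold.

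SLC7A11, the cystine importer that pairs with the same heavy chain, was lower than shLuc with each hairpin. Its signals were 814 with shMMSET#2 and 1181 with shMMSET#4, against 1626 with shLuc, and a second probe set of like brightness had 460.2, 761 and 1545. SLC7A1, the carrier of cationic amino acids such as arginine, had 1174 with shMMSET#2 and 1947 with shMMSET#4, against 2687 with shLuc. SLC1A4, a carrier of alanine, serine and cysteine, differed less, with 2571 with shMMSET#2 and 3558 with shMMSET#4, against 2971 with shLuc. With shMMSET#2, 5 of the 6 transporter genes lay 1.5-fold or more under shLuc (against 22.5% of all genes), and with shMMSET#4 SLC3A2 lay 1.5-fold or more over it (against 17.3%). Scaling to one median signal left 3 of the 6 under shLuc with shMMSET#2 (against 13.2% of all genes). It put 4 over shLuc with shMMSET#4 (against 34.7%). Probe sets of SLC1A4 and SLC7A1 had opposite signs at 1.5-fold for shMMSET#4 over shLuc.

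As deposited, most synthetases differed little from shLuc. With shMMSET#2, 1 of 11 measured lay 1.5-fold or more under shLuc (against 22.5% of all genes) and 1 over it (against 16.2%). With shMMSET#4, none lay under it (against 20.6%) and 1 over it (against 17.3%). For genes with a mean signal of at least 1000, the shares were 13.9% under and 16.7% over with shMMSET#2. With shMMSET#4 they were 11.4% and 16.2%. The synthetases are bright, and at those shares these counts do not set them apart. After scaling to one median signal, 5 of the 11 lay 1.5-fold or more over shLuc with shMMSET#4, against 34.7% of all genes. IARS1, for isoleucine, had 16720 with shMMSET#2 and 19972 with shMMSET#4, against 21735 with shLuc. NARS1, for asparagine, had 16957 and 20623, against 20145 with shLuc. EPRS1, for glutamate and proline, had 12254 and 14208, against 14262 with shLuc. All 3 are bright and had their lowest deposited signal with shMMSET#2, an order that scaling to one median signal turned for EPRS1 and NARS1.

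GARS1, for glycine, had 8695 with shMMSET#2 and 14110 with shMMSET#4, against 13588 with shLuc, and was 1.56-fold lower with shMMSET#2. AARS1, for alanine, had 5270.3 with shMMSET#2 and 7210.1 with shMMSET#4, against 5075 with shLuc. CARS1, for cysteine, had 6489 and 9628, against 7189 with shLuc. YARS1, for tyrosine, had 4704 and 6849.8, against 5047 with shLuc. In these 4 genes the highest signal on the brightest probe set was that of shMMSET#4. The dimmer YARS1 probe set had 201 with shMMSET#2 and 169 with shMMSET#4, against 292 with shLuc. LARS1, TARS1 and SARS1, for leucine, threonine and serine, differed from shLuc by at most 1.28-fold on the brightest probe set of each. With shMMSET#2, the dimmest probe set of each was lower than shLuc by more, 1.71-fold for LARS1, 2.36-fold for TARS1 and 2.13-fold for SARS1. The remaining LARS1 probe sets differed from shLuc by at most 1.22-fold.

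WARS1, for tryptophan, stood apart from the other synthetases, and it is also known as an interferon-induced gene. Its signal was 1387 with shMMSET#2 and 2351 with shMMSET#4, against 760.0 with shLuc, which is 1.82-fold and 3.09-fold higher. A second probe set had 569 with shMMSET#2 and 933 with shMMSET#4, against 390.4 with shLuc. No match to the letters was found in its 2 promoter windows. The synthetases had a median log2 ratio to shLuc of -0.22 with shMMSET#2, which became 0.10 when the arrays were scaled to the same median signal, and of 0.05 with shMMSET#4, which became 0.43.

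Over the whole set, shMMSET#2 left 6 of 38 genes (15.8%) 2-fold or more under shLuc, against 10.7% of the 13296 genes, and none was at least 2-fold higher, against 5.69%. The 6 were ATF4, STC2, VLDLR, CTH, SLC7A1 and SLC1A5, with SLC7A11 (signals of 814 and 1626) just inside 2-fold. At 1.5-fold, 18 were lower (47.4%, against 22.5% of all genes) and 2 were higher (5.26%, against 16.2%). After scaling to one median signal, 8 were 1.5-fold or more lower (21.1%, against 13.2% of all genes) and 3 were higher (7.89%, against 30.1%). With shMMSET#4, 4 of 38 were at least 2-fold higher than shLuc (10.5%, against 6.74%), namely CEBPB, PHGDH, SHMT2 and WARS1, and 1 was lower (2.63%, against 8.95%), namely VLDLR. At 1.5-fold, 8 were higher (21.1%, against 17.3%) and 1 was lower (2.63%, against 20.6%), and after that scaling 19 were higher (against 34.7% of all genes) and 1 was lower (against 10.1%). The median log2 ratio of the 38 genes was -0.48 with shMMSET#2 and 0.13 with shMMSET#4, and -0.16 and 0.51 once the arrays were scaled to one median signal. VLDLR was the 1 gene at least 2-fold lower with each hairpin, against 4.35% of all genes, and none was at least 2-fold higher with each, against 2.83%. At 1.5-fold, VLDLR was lower with each (against 11.9% of all genes), and CEBPB and WARS1 were higher with each (against 8.6%). As deposited, ASNS, PHGDH, CBS and SLC3A2 were 1.5-fold or more lower with shMMSET#2 and 1.5-fold or more higher with shMMSET#4 (0.654% of all genes). Scaling to one median signal ended the shMMSET#2 side for all 4, with log2 ratios of -0.38, -0.47, -0.45 and -0.27 for ASNS, PHGDH, CBS and SLC3A2. It left SLC1A5 as the 1 gene that met this description, against 0.986% of all genes. As deposited, none of the 38 went opposite ways at 2-fold (0.0526% of all genes). The hairpins share the shLuc array, and nothing is read from those last counts.

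The direct comparison of shMMSET#4 with shMMSET#2 does not use the shLuc array. In it, 36 of 38 genes were higher with shMMSET#4 on their brightest probe sets (94.7%), against 6649 of all 13296 genes. The median log2 ratio was 0.59, against 0.00 for all genes. At least 2-fold higher were 9 of 38 (23.7%), against 6.6% of all genes, and none was at least 2-fold lower, against 3.72%. The 9 were STC2 (at least 4.92-fold), PHGDH (4.32-fold), SHMT2 (4.24-fold), SLC1A5 (3.20-fold), PSAT1 (2.63-fold), SLC3A2 (2.61-fold), ASNS (2.59-fold), CBS (2.57-fold) and SLC7A5 (2.52-fold). At 1.5-fold, 19 of 38 were higher (against 16.9% of all genes) and 1, DDIT3, was lower (2.63%, against 13.6%).

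By role, 5 of 10 synthesis genes, 3 of 6 transporters, 1 of 5 effectors, none of 6 regulators and none of 11 synthetases were at least 2-fold higher with shMMSET#4 than with shMMSET#2, against 6.6% of all genes. At that share, a count of none in 6 or 11 genes sets neither role apart. On their brightest probe sets, the 11 synthetases had smaller ratios in one direction, between 0.20 and 0.76 on the log2 scale. Because dim genes vary more and the set is bright, genes with a mean signal of at least 1000 were also counted alone. There, 5 of 27 genes of the set were at least 2-fold higher with shMMSET#4 (18.5%), against 3.64% of 5051 genes, and none was lower, against 1.37%. At 1.5-fold, 11 of the 27 were higher, against 10.4%, and none was lower, against 7.9%. Over shLuc, shMMSET#2 had 2 of the 27 at least 2-fold lower (against 5.09%) and none higher (against 5.19%), and at 1.5-fold 8 lower (against 13.9%) and 2 higher (against 16.7%). With shMMSET#4, none was at least 2-fold lower (against 3.15%) and 3 were higher (against 5.39%), and at 1.5-fold none was lower (against 11.4%) and 6 were higher (against 16.2%). Of 22 genes with several probe sets above the floor, none had probe sets of opposite sign at 1.5-fold in shMMSET#4 over shMMSET#2. Without that threshold, signs differed between probe sets of ATF5, CEBPG, SESN2, MTHFD2, SLC7A1, SLC1A4, LARS1 and YARS1. The directions counted are those of the brightest probe sets.

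**Figure D3:**
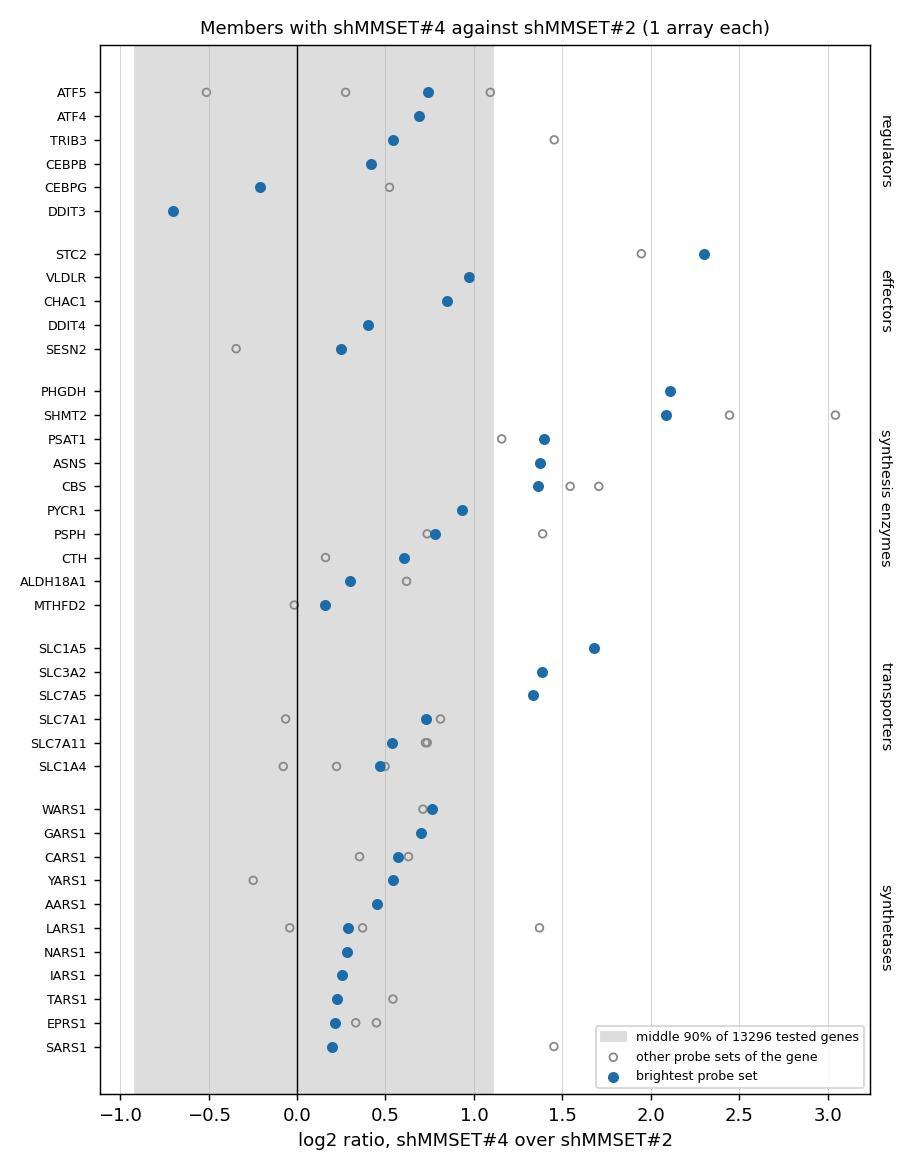
Log2 ratio of shMMSET#4 over shMMSET#2 (x axis) for the brightest probe set (filled circles) and the other probe sets above the floor (open circles) of each of 38 genes (rows). The grey band holds the middle 90% of 13296 genes, and 9 filled circles lie to its right, among them the serine pathway genes PHGDH, PSAT1 and SHMT2.

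Genes with and without the promoter letters differed little in this ratio. The median log2 ratio of shMMSET#4 over shMMSET#2 was 0.57 for the 13 genes whose windows held TGATGNAA and that passed the filter, and 0.60 for 19 genes whose windows did not. PHGDH and PSAT1, with ratios of 2.11 and 1.39 on the log2 scale, had windows without the letters, and SHMT2 had no window in the table. Over shLuc, the medians with and without the letters were -0.38 and -0.70 for shMMSET#2. For shMMSET#4 they were 0.05 and -0.005. Most genes with the letters are synthetases and transporters, and the part of the letters apart from role was not tested.

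Related genes outside the set were described from lists of the same pathway. Of 13 other reported ATF4 targets kept by the filter, 3 were at least 2-fold higher with shMMSET#4 than with shMMSET#2 (against 6.6% of all genes) and none was lower (against 3.72%), with a median log2 ratio of 0.46. EIF4EBP1, which encodes a repressor of cap-dependent translation, had signals of 257 with shMMSET#2 and 2228 with shMMSET#4, against 1087 with shLuc, a ratio of 8.68-fold between the hairpins. ALDH1L2, a mitochondrial folate enzyme, had 339 with shMMSET#2 and 1998 with shMMSET#4, against 1159 with shLuc. XPOT, the exporter of transfer RNA from the nucleus, had 6384 and 14321, against 11414 with shLuc. All 3 had the order seen in ASNS and PHGDH on the brightest probe set of each. The other ALDH1L2 probe sets had 105 and 106 with shMMSET#4 and lay under the floor with shMMSET#2 and shLuc. EIF4EBP1, ALDH1L2 and XPOT were chosen after their values were seen.

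Other genes of that list were lower with each hairpin. ATF3, a stress-induced repressor, had 1169 with shMMSET#2 and 867 with shMMSET#4, against 2141 with shLuc. SLC38A2, a glutamine carrier induced by amino acid lack, had 16898 and 17069, against 26728 with shLuc, and ADM2, a secreted peptide gene, had 56.3 and 35.1, against 86.5.

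Of 6 cytosolic synthetases outside the set, 2 were higher and 4 were lower with shMMSET#4 than with shMMSET#2. Of all 13296 genes, 6649 were higher and 6427 were lower, and at those shares these counts do not set the 6 apart. The median log2 ratio of the 6 was -0.11, and the difference from the 11 was not tested. Of the cytosolic synthetases outside the set, none of the 6 with a promoter window held the letters, whether or not they were measured. VARS1, for valine, had 1068 with shMMSET#2 and 1560.4 with shMMSET#4, against 439 with shLuc. RARS1, for arginine, had 3952 with shMMSET#2 and 1564 with shMMSET#4, against 2044 with shLuc, and was chosen after its values were seen. Of 15 mitochondrial synthetases, 1 was at least 1.5-fold higher (against 16.9% of all genes) and 4 were at least 1.5-fold lower (against 13.6%) with shMMSET#4 than with shMMSET#2, with a median of -0.17. CARS2, LARS2 and YARS2, mitochondrial enzymes for cysteine, leucine and tyrosine, were higher than shLuc with each hairpin: CARS2 by 2.21-fold and 2.20-fold, LARS2 by 2.32-fold and 1.82-fold, and YARS2 by 1.98-fold and 1.82-fold.

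Among the eIF2 kinases, EIF2AK3 stood out. It encodes PERK, the kinase that senses unfolded protein in the endoplasmic reticulum and raises ATF4 translation. Its signal was 2636 with shMMSET#2 and 2463 with shMMSET#4, against 10824 with shLuc, which is 4.11-fold and 4.39-fold lower. Its other probe set was under the floor on all arrays. EIF2AK4, for the amino acid sensor GCN2, had 920.5 and 1329, against 1390.0 with shLuc, and EIF2AK1 and EIF2AK2, for the heme sensor HRI and the RNA sensor PKR, differed from shLuc by at most 1.38-fold. EIF2AK1, EIF2AK2 and EIF2AK4 were chosen after their values were seen. IMPACT, an inhibitor of GCN2 activation, had 1102 and 1261, against 702 with shLuc. In shMMSET#4 over shMMSET#2 none of the 9 genes of this list was 1.5-fold higher (against 16.9% of all genes) or lower (against 13.6%).

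The XBP1 and ATF6 branches of the unfolded protein response were examined in 13 genes. Their median log2 ratio of shMMSET#4 over shMMSET#2 was 0.48, with 4 at least 1.5-fold higher (against 16.9% of all genes) and none lower (against 13.6%). CRELD2, an endoplasmic reticulum chaperone gene, had 2626 with shMMSET#2 and 4154 with shMMSET#4, against 1289 with shLuc. HSPA5, the chaperone BiP, had 11922 and 22398, against 24800.0 with shLuc, in the order seen for ATF4, and was chosen after its values were seen. Of 6 other genes of one-carbon and glycine metabolism, 2 were at least 2-fold higher with shMMSET#4 than with shMMSET#2 (against 6.6% of all genes), GCSH (2.03-fold) and TYMS (2.30-fold), both chosen after their values were seen. AMT, a subunit of the glycine cleavage system, had 87.8 with shMMSET#2 and 144 with shMMSET#4, against 225 with shLuc.

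**Figure D4:**
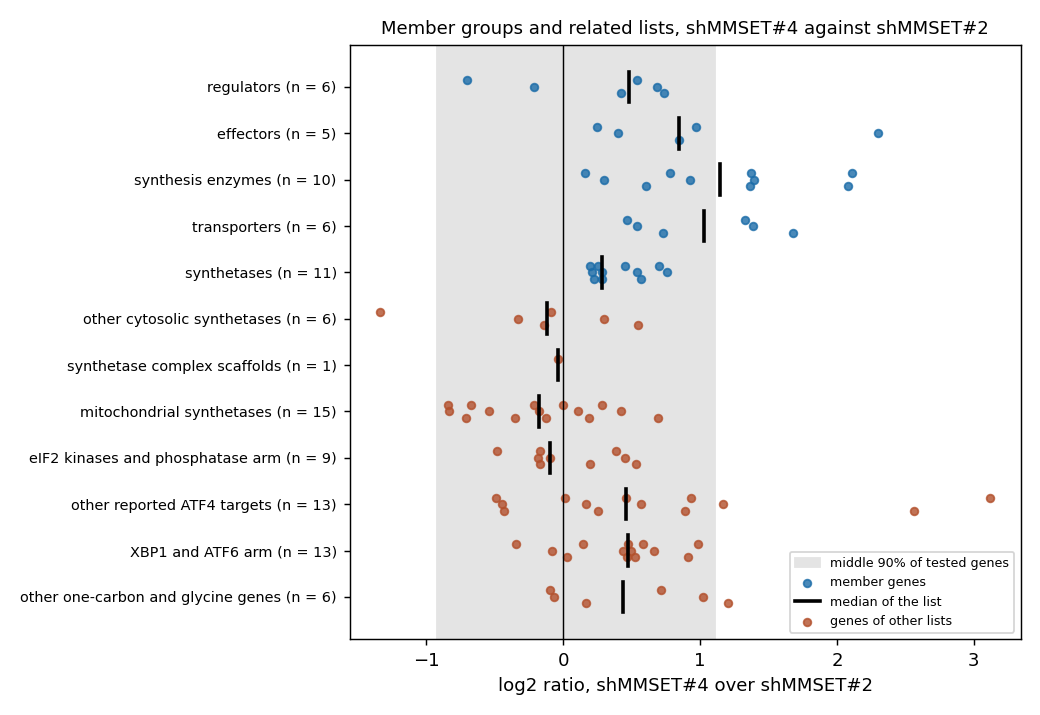
Log2 ratio of shMMSET#4 over shMMSET#2 (x axis) of the genes of each role in the set (blue) and of related lists (brown), 1 point per gene, with a black bar at the median of the list and the middle 90% of all genes in grey. The medians of synthesis genes (1.15) and transporters (1.03) lie farther right than those of the synthetases (0.29) and of the mitochondrial synthetases (-0.17).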

How the data were processed

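Biotin-labelled RNA from KMS11 cells was measured on 3 Affymetrix arrays, 1 for each of the groups shMMSET#2, shMMSET#4 and shLuc, taken from the sample titles. The deposited values are MAS5 intensities, linear signals per probe set, per the submitters' processing notes; GeneSpring is named in the design text, and for neither tool is a version or setting given in the sources used here. The table holds 54675 probe sets, more than the array type that the design text names, and they were read as HG-U133 Plus 2.0. The 2% trimmed mean was 500.1 on each array, so values were not rescaled. Symbols were updated by Entrez identifier for 41037 of 41091 probe sets with 1 symbol, and 1801 with several symbols and 11721 without one were not used. Signals were floored at the 40th percentile (41.2) without 62 control probe sets and log2-transformed; at the floor were 41.2% of probe sets for shMMSET#2, 42.6% for shMMSET#4 and 36.2% for shLuc. Genes were called at 2-fold, and counts at 1.5-fold are also given. Every gene of the set was named; of each related list, up to 4 genes past 1.5-fold the same way with both hairpins were named, and further ones are marked in the text. The set, the lists and the rules were chosen with earlier results of these data known. Some listed genes were not analysed here. Alternatives covered scaling, floor, filter, choice of probe set and threshold. Steps were tested on simulated data. Software was Python 3.11.15 with pandas 2.3.3, numpy 2.4.6, scipy 1.17.1 and, for plots, matplotlib 3.10.9.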

Additional observations from a re-analysis of the deposited data

Results flagged for a closer look

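As deposited, ASNS, PHGDH, CBS and SLC3A2 were at least 1.5-fold lower than shLuc with shMMSET#2 and at least 1.5-fold higher than shLuc with shMMSET#4, that is, the hairpins against the same gene went opposite ways. The log2 ratio of shMMSET#4 over shMMSET#2 was 1.37 for ASNS, 2.11 for PHGDH, 1.36 for CBS and 1.39 for SLC3A2. Each group has 1 array, and the difference was not tested. When the arrays were scaled to the same median signal, none of the 4 was 1.5-fold lower with shMMSET#2, with log2 ratios to shLuc of -0.38 for ASNS, -0.47 for PHGDH, -0.45 for CBS and -0.27 for SLC3A2. As deposited, over all 13296 genes, 0.654% met the same description.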

How the results depend on the processing

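No paired analysis was possible because each group had 1 array. Scaling to the same median signal changed the counts at 2-fold to 3 lower and 2 higher with shMMSET#2, and to 0 lower and 7 higher with shMMSET#4, with 0 lower and 2 higher with both; over shLuc it moved the medians with shMMSET#4 to 0.51 (all), 0.19 (regulators), 0.011 (effectors), 0.95 (synthesis), 0.64 (transporters) and 0.43 (synthetases), and those with shMMSET#2 to 0.15 (regulators) and 0.10 (synthetases). The median of all with shMMSET#2 became -0.16. Counts at 1.5-fold under this scaling were chosen after seeing the data. In them, 8 genes were lower with shMMSET#2 (against 13.2% of all genes) and 19 were higher with shMMSET#4 (against 34.7%). A count of 1 went opposite ways with the hairpins (against 0.986%). The shift follows from the lower median signals of the hairpin arrays (62.0 for shMMSET#2 and 59.5 for shMMSET#4, against 77.4 for shLuc). It applied to all genes, whose median log2 ratio to shLuc became 0.25 with shMMSET#2 and 0.34 with shMMSET#4. A floor at the 60th percentile left 0 genes lower with shMMSET#4 and 0 with both. When probe sets of the _x_at and _s_at kinds were left out, which kept 25 genes, the effector median with shMMSET#2 became -1.81 and the transporter median with shMMSET#4 -0.64. At 1.5-fold the counts were 18 lower and 2 higher with shMMSET#2, 8 higher with shMMSET#4, 19 higher and 1 lower with shMMSET#4 over shMMSET#2, and 2 higher with both; at 3-fold they were 2 lower with shMMSET#2, 0 lower and 2 higher with shMMSET#4, 4 higher with shMMSET#4 over shMMSET#2, and 0 lower with both. In shMMSET#4 over shMMSET#2 the scaling alternatives gave 10 genes at least 2-fold higher with the same median signal and 10 with quantile normalization. No gene of the set past 2-fold changed sign in that comparison or over shLuc under any alternative run. Filter and threshold changes leave a ratio as it is, and scaling to one median signal shifted it by less than 2-fold. For those alternatives, the absence of sign changes was fixed in advance. Under all alternatives run, the share of all genes past 2-fold was not counted, nor was the share past 3-fold. The counts at those thresholds are therefore not set against all genes, and nothing is read from them. Dim genes such as STC2 and VLDLR are limited by their signal over background.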
